A study of Rattus norvegicus with 12 samples.

Results

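The 5 genes described here, RT1-A1, RT1-A2, RT1-N2, RT1-T24-3 and RT1-T24-4, are class I genes of the rat major histocompatibility complex. They were picked by name, among 21 class I genes and 32883 genes in the count tables, because their counts differed between the strains DA and LEW in these data, so the strain differences of these 5 genes are given as a description and without a test. The questions asked were in which cells of the liver each gene was counted, how far each differed between the strains, and whether that difference was alike in all cell types.

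The study mapped the healthy liver of Dark Agouti (DA) and Lewis (LEW) rats, all male and without genetic modification or drug treatment. Dissociated total liver homogenate (TLH) was sequenced as cells from 2 DA and 2 LEW rats with version 2 of the 10x chemistry. Single nuclei (snRNA-seq) came from 2 DA and 2 LEW rats, and immune-enriched cells from 1 DA and 1 LEW rat, both with version 3. The 2 Visium sections of Wistar rat liver add a further strain, with counts over spots of tissue that can each hold several cells. The series' design text gives 8 to 10 weeks for the TLH rats, while the names of the TLH matrices carry 10 weeks for DA and 13 weeks for LEW, so age and strain cannot be told apart. A further age is stated elsewhere for these rats. The study describes the rats of the nuclei as additional animals, but the animal numbers on the nuclei libraries recur on the TLH libraries. With 2 rats per strain, p-values for a strain difference within 1 cell type measure the spread between these few animals and their preparations. Those that compare cell types, with each rat as a block, measure how far such differences varied from rat to rat. Each fit shared information on spread over all genes, so a very small p-value draws on more than these few rats.

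Class I molecules are membrane proteins that hold a peptide from inside the cell and show it to CD8+ T cells and natural killer cells, in a complex with the light chain beta-2 microglobulin. In the rat, RT1-A1 and RT1-A2 belong to the classical class I genes, which are expressed on most nucleated cells and carry most of the variation between strains. RT1-N2, RT1-T24-3 and RT1-T24-4 belong to the nonclassical class I genes, a larger group of related copies with more restricted expression. The number and the sequence of class I genes differ between RT1 haplotypes, DA and LEW carry different ones, and the reference genome is that of another strain, Brown Norway. A UMI (unique molecular identifier, 1 captured transcript) of DA or LEW is counted, if at all, on a Brown Norway gene that it resembles. A strain difference in transcript and one in alignment therefore cannot be told apart in these counts.

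The 250 bases before the annotated start of each of the 5 genes are shown because RT1-A1 and RT1-A2 share motifs there that the windows of the other 3 lack. The sequences are those of RefSeq on the build GRCr8, on the plus strand and 5′ to 3′, whereas the counts were made on another build. Capitals mark matches to GGGGATTCCCC, the letters of the kappa B site in enhancer A of class I promoters, and to AGTTTCNNTTCT, the letters of an interferon-stimulated response element. Both were read from the RT1-A1 sequence, with any base allowed at N, and searched on both strands with these sequences in view.
RT1-A1, chr20:4906959-4907208: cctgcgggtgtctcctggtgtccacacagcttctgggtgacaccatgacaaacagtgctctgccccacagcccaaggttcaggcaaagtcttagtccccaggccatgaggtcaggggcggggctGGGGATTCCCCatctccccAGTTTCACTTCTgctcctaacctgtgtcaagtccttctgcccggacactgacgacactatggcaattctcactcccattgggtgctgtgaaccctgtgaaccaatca
RT1-A2, chr20:4872621-4872870: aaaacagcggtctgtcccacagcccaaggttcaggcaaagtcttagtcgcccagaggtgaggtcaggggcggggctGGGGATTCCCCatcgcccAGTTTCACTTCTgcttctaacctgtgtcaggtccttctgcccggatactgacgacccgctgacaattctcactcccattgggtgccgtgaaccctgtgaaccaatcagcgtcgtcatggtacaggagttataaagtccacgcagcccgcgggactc
RT1-N2, chr20:2646080-2646329: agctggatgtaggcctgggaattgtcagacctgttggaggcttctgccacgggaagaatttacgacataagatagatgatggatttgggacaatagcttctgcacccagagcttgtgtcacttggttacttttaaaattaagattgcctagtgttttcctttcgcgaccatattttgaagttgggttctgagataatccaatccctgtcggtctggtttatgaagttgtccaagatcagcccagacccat
RT1-T24-3, chr20:2722875-2723124: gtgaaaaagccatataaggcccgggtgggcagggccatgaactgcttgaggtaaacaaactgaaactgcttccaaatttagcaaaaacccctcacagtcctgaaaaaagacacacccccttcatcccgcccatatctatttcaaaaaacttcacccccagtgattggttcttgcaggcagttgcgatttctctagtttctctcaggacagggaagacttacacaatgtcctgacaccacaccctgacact
RT1-T24-4, chr20:2689083-2689332: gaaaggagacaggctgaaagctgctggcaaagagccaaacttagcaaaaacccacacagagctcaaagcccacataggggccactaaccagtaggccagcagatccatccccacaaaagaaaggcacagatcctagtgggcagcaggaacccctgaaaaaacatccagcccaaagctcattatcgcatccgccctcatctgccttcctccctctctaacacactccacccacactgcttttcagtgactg
Both motifs were present in RT1-A1, from 126 to 116 and from 107 to 96 bases before the start, and in RT1-A2, from 174 to 164 and from 156 to 145 bases before it. Neither was found in the windows of RT1-N2, RT1-T24-3 and RT1-T24-4, which says only that these letters are not there. Among 33469 rat promoters of the same length GGGGATTCCCC was found in 20 (0.0598%) and AGTTTCNNTTCT in 66 (0.197%), and among 33 promoters of class I genes in 8 and 10. Nonclassical genes of the RT1-CE cluster, RT1-CE4 and RT1-CE10 among them, also held both motifs. In a local alignment RT1-A1 and RT1-A2 shared 185 of 203 aligned positions (91.1%), while RT1-T24-3 and RT1-T24-4 aligned over 34 positions only, of which 28 were identical. RT1-T24-3 and RT1-T24-4 are neighbours on chromosome 20 in the RefSeq order, and so are RT1-A1 and RT1-A2, with the class II genes in between.

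Barcodes were assigned to cell types by lists of marker genes that hold no RT1 gene, and each assigned set is called a gate. A gate needed at least 5 UMIs and 0.2% of UMIs from its list, and a lead of 4 times over every other list except the hepatocyte list. The erythroid gate needed 2% of UMIs and the same lead. A hepatocyte needed at least 1% of UMIs from the hepatocyte list, no other list past its limits and at most 2 UMIs of each other list. The cholangiocyte and erythroid lists had no such limit of 2 UMIs. Barcodes in which a list passed without the lead were left out. Hepatocyte counts did not exclude a barcode from the other gates. For TLH 6 gates had at least 30 barcodes in every rat (hepatocyte, endothelial, Kupffer cell, Lyz2 myeloid, NK/T lymphocyte and mesenchymal), and for nuclei 4, without the Lyz2 myeloid and NK/T gates. The smallest set was 31 barcodes for Lyz2 myeloid cells in TLH and 42 for Kupffer cells in nuclei. Levels are given as CPM, the UMIs of a gene per 1000000 UMIs of the sum over a gate's barcodes in 1 rat. Hepatocyte RNA was present in every gate of the dissociated cells. The hepatocyte list made 7.01% to 8.06% of UMIs in the TLH hepatocyte gate, 5.25% to 6.77% in the endothelial gate and 3.69% to 5.59% in the Kupffer gate, against 0.0678% to 0.909% in Kupffer cells of the immune-enriched libraries. In the TLH endothelial gate 62.3% and 27.9% of the DA barcodes and 11.3% and 16.3% of the LEW barcodes lay within 2 times of its threshold. The part of this RNA in the levels given here was not tested.

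RT1-A1, a classical class I heavy chain, was counted at higher levels in LEW than in DA in every gate. In TLH hepatocytes it stood at 58.9 and 81.8 CPM in the DA rats and at 239 and 203 CPM in the LEW rats (70.4 ± 16.2 against 221 ± 25.5, SD, n = 2), a ratio of 3.14. In TLH endothelial cells it was 58.3 and 104 CPM in DA and 491 and 397 CPM in LEW, a ratio of 5.47. In TLH Kupffer cells, the resident macrophages, it was 105 and 189 CPM in DA and 1199 and 1126 CPM in LEW (147 ± 59.4 against 1163 ± 51.4, SD, n = 2), a ratio of 7.91. Both LEW rats thus lay above both DA rats, and the gap was widest in Kupffer cells. In nuclei the LEW rats were again the higher ones, with 124 and 149 CPM in DA against 426 and 312 CPM in LEW for hepatocytes, a ratio of 2.70. Nuclei of Kupffer cells gave 285 and 429 CPM in DA against 651 and 1149 CPM in LEW, a ratio of 2.52. Over the 10 gates of both platforms the ratio ran from 2.10 to 7.91 with a median of 3.38, and the rats of the strains did not overlap in any of them. This count is what the choice of the gene leads to, and nothing is read from it. Of all genes with at least 10 UMIs, both LEW rats were above both DA rats in 21.8% for hepatocytes, 26.5% for endothelial, 26.7% for Kupffer, 22.0% for Lyz2 myeloid, 23.0% for NK/T and 16.7% for mesenchymal cells of TLH. In nuclei the shares were 17.5% for hepatocytes, 16.6% for endothelial, 17.7% for Kupffer and 18.2% for mesenchymal cells.

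RT1-A2, the other classical heavy chain, showed the opposite direction in every gate. TLH hepatocytes held 94.3 and 220 CPM in the DA rats and 18.2 and 19.7 CPM in the LEW rats, a DA to LEW ratio of 8.30. TLH Kupffer cells held 228 and 565 CPM in DA and 54.7 and 69.8 CPM in LEW, a ratio of 6.36. TLH mesenchymal cells held 95.7 and 260 CPM in DA and 7.58 and 13.9 CPM in LEW, a ratio of 16.6 that rests on 3 and 5 UMIs in the LEW rats. DA rat 1 stood below DA rat 2 in all 6 TLH gates, by 2.33 to 2.96 times, and LEW rat 1 below LEW rat 2 in all 6, by 1.08 to 2.26 times. In nuclei DA rat 2 was the higher one in all 4 gates as well, by 1.24 to 1.45 times, and hepatocyte nuclei held 235 and 291 CPM in DA against 50.9 and 43.6 CPM in LEW, a ratio of 5.57. Over the 10 gates the DA to LEW ratio ran from 3.29, in Lyz2 myeloid cells, to 16.6 with a median of 5.63, without overlap in any gate. Of all genes, both DA rats were above both LEW rats in 27.6% for hepatocytes, 18.8% for endothelial, 22.8% for Kupffer, 18.1% for Lyz2 myeloid, 18.3% for NK/T and 27.6% for mesenchymal cells of TLH. In nuclei the shares were 17.9% for hepatocytes, 20.8% for endothelial, 20.5% for Kupffer and 22.2% for mesenchymal cells.

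**Figure D1:**
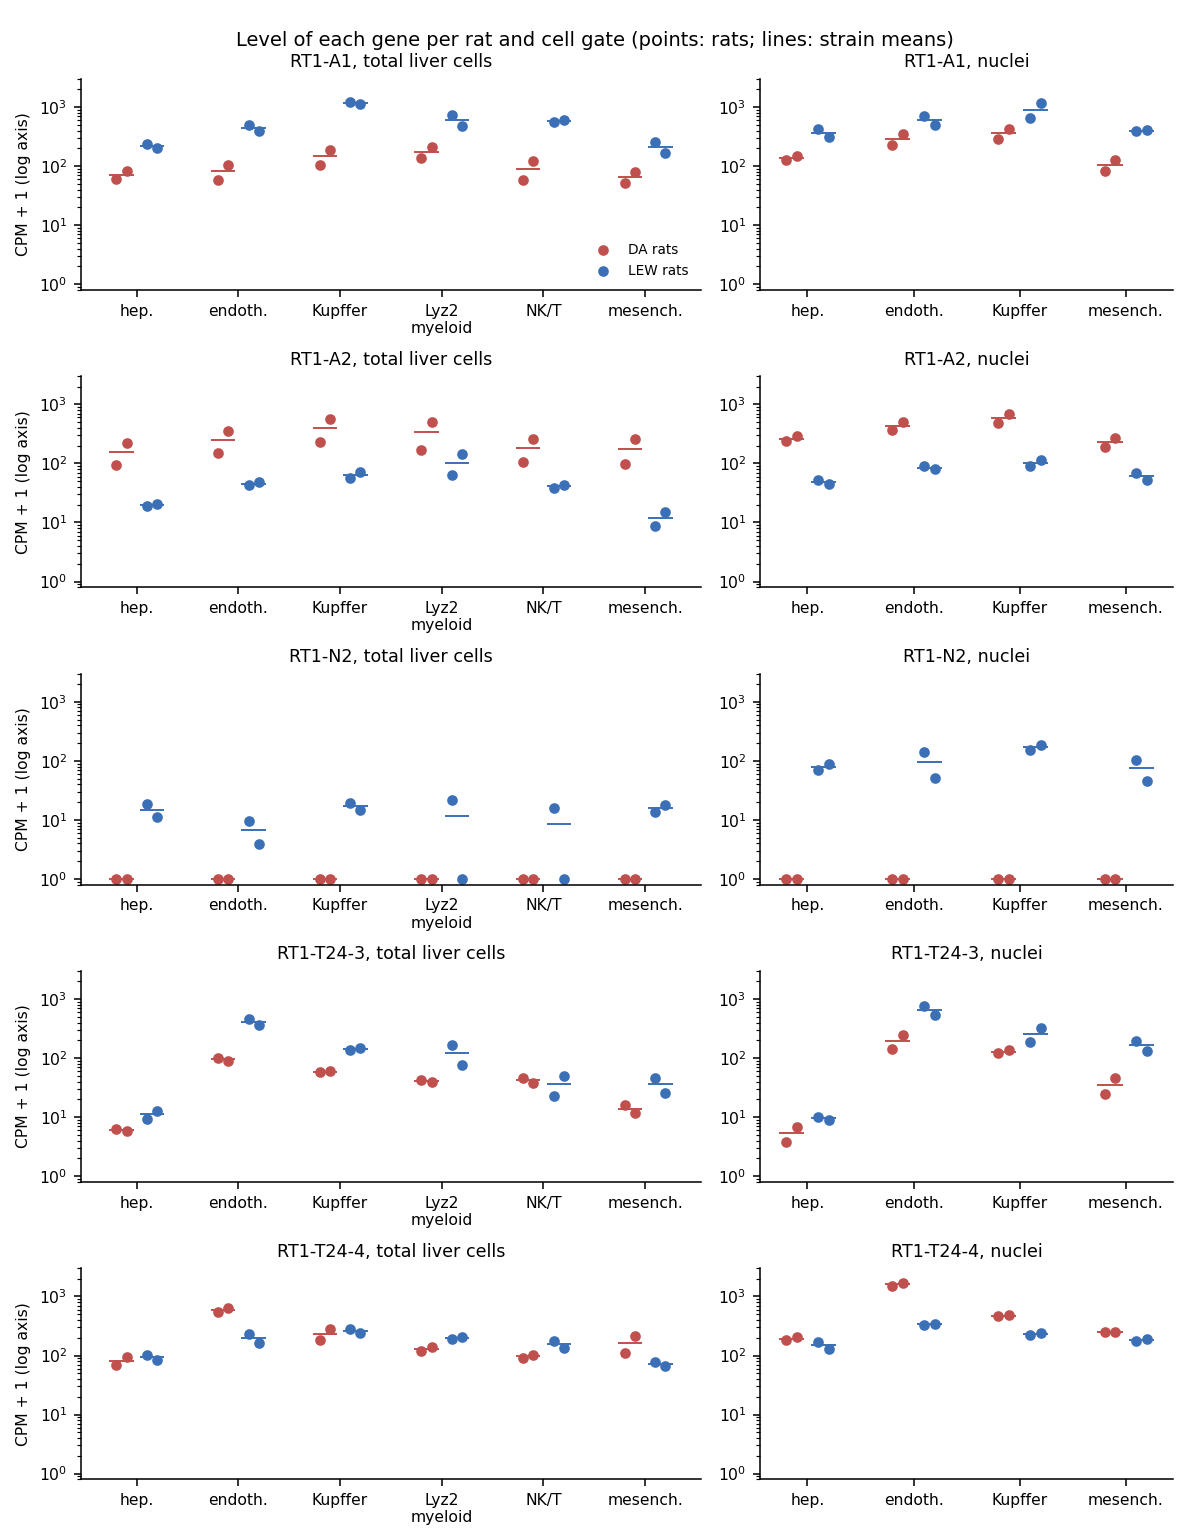
Level of each of the 5 genes (rows; CPM + 1 on a log axis) in every gate, for TLH cells and nuclei, with 1 point for each DA and each LEW rat. RT1-A1 lay higher in LEW and RT1-A2 higher in DA in all 10 gates, RT1-N2 was at 0 in DA, and the strains changed places for RT1-T24-4 between gates.

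RT1-N2, a nonclassical gene, had no UMI in any DA library, in TLH, nuclei or immune-enriched cells. In LEW it was present at low levels, with 17.7 and 10.1 CPM in TLH hepatocytes (138 and 42 UMIs) and 68.5 and 88.3 CPM in hepatocyte nuclei (608 and 434 UMIs). Against the level that 3 counts over the DA group would give, LEW was at least 84.7-fold higher in TLH hepatocytes and at least 223-fold higher in hepatocyte nuclei. In the smaller gates the LEW counts were few. TLH endothelial cells held 8.54 and 2.96 CPM, from 7 UMIs and 1 UMI, TLH Kupffer cells 18.5 and 13.6 CPM, and Lyz2 myeloid cells 3 UMIs in LEW rat 1 and none in LEW rat 2. Endothelial nuclei held 138 and 50.4 CPM and Kupffer cell nuclei 154 and 185 CPM. Both LEW rats were above 0 in 8 of the 10 gates, all but the Lyz2 myeloid and NK/T gates of TLH. This count follows from the choice of the gene. Of all genes LEW was higher without overlap in 16.6% to 26.7%, depending on the gate.

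RT1-T24-3, a nonclassical gene, had its highest level in endothelial cells in each of the 8 TLH and nuclei libraries. In TLH endothelial cells it stood at 101 and 88.8 CPM in DA and 463 and 359 CPM in LEW, a LEW to DA ratio of 4.33. In TLH hepatocytes it stood at 5.34 and 4.88 CPM in DA and 8.33 and 12.0 CPM in LEW, a ratio of 1.99. In TLH Kupffer cells it stood at 57.1 and 59.5 CPM in DA and 138 and 148 CPM in LEW, a ratio of 2.45. The NK/T gate held 45.3 and 36.9 CPM in DA and 22.2 and 48.9 CPM in LEW, from 6 to 11 UMIs per rat, and the strains overlapped. Endothelial nuclei gave 145 and 241 CPM in DA and 762 and 542 CPM in LEW, a ratio of 3.38, and mesenchymal nuclei 23.7 and 44.7 CPM against 197 and 133 CPM, a ratio of 4.83. LEW was higher without overlap in 9 of 10 gates. The choice of the gene leads to this count too, beside 16.6% to 26.7% of all genes per gate.

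RT1-T24-4, its neighbour, was higher in DA in some TLH gates and higher in LEW in others, the latter from few UMIs. TLH endothelial cells held 543 and 627 CPM in the DA rats and 229 and 163 CPM in the LEW rats, a DA to LEW ratio of 2.98. TLH Kupffer cells held 183 and 275 CPM in DA and 279 and 238 CPM in LEW, and TLH hepatocytes 67.4 and 93.8 CPM in DA and 99.3 and 84.4 CPM in LEW, so that the strains overlapped in both. The Lyz2 myeloid and NK/T gates were higher in LEW, with 116 and 137 CPM against 187 and 206 CPM and 90.6 and 101 CPM against 177 and 134 CPM, LEW to DA ratios of 1.56 and 1.62. These ratios rest on 29 DA and 46 LEW UMIs in the Lyz2 myeloid gate and on 44 and 70 in the NK/T gate. Nuclei were higher in DA in all 4 gates. Endothelial nuclei held 1512 and 1702 CPM in DA against 326 and 345 CPM in LEW, a DA to LEW ratio of 4.79, while hepatocyte nuclei held 183 and 204 CPM against 170 and 128 CPM, a ratio of 1.29. Kupffer cell nuclei, with 461 and 479 CPM in DA against 224 and 236 CPM in LEW, lay in between with a ratio of 2.04. Of the 8 gates without overlap DA was higher in 6 and LEW in 2. Per gate, 17.9% to 27.6% of all genes were without overlap with DA higher and 16.6% to 26.7% with LEW higher. The gene was picked for its strain difference, and nothing is read from this count.

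**Figure D2:**
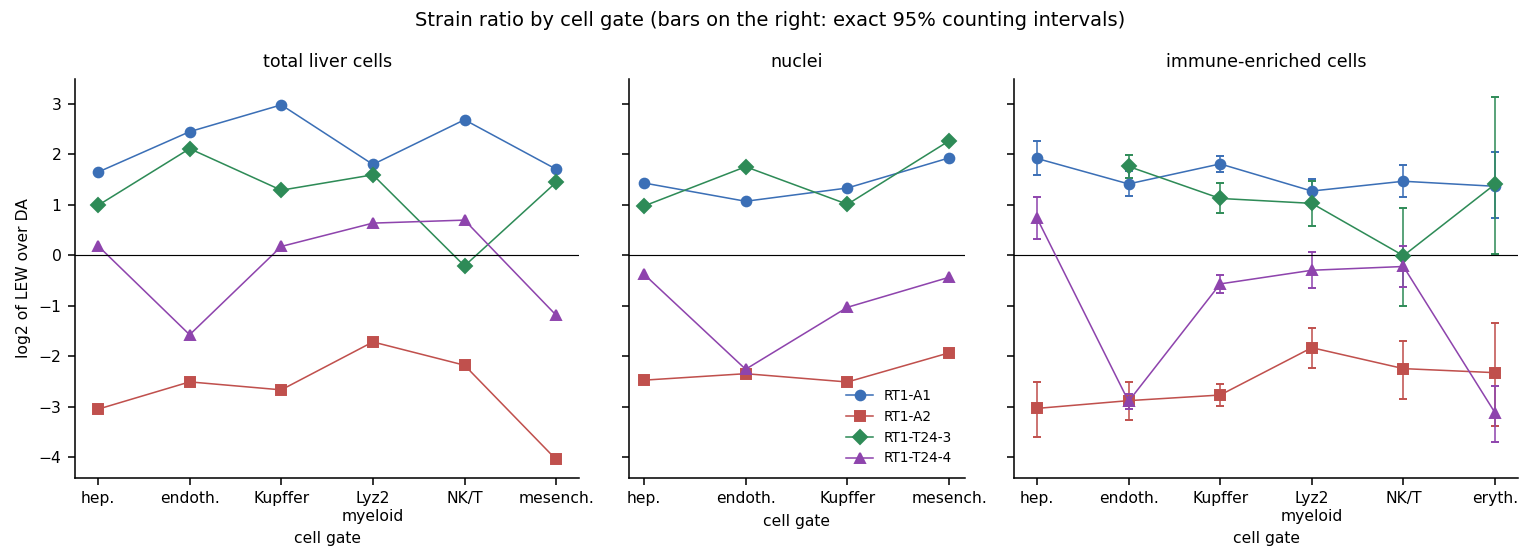
The log2 ratio of LEW over DA for RT1-A1, RT1-A2, RT1-T24-3 and RT1-T24-4 in each gate of TLH cells and nuclei and in immune-enriched cells. The immune-enriched libraries (1 rat per strain) have exact 95% counting intervals, and their mesenchymal and B cell gates are not shown. RT1-A1 lay above 0 and RT1-A2 below 0 in all gates shown, while RT1-T24-4 was lowest in the endothelial gate of TLH and nuclei.

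Whether the strain difference was alike in all cell types was tested as a strain by gate interaction. The 4 rats and all gates of a platform were fitted together with each rat as a block, which takes up any strain difference shared by all gates. A strain difference that arose in some gates only stays in this test. The genes were picked with their strain differences known, so for them the test is not free of that choice. With edgeR's quasi-likelihood test and Benjamini-Hochberg adjustment, 470 of 7414 genes (6.34%) had a strain difference that varied over the 6 TLH gates, and 36 of 5001 genes (0.72%) did so over the 4 gates of nuclei. In TLH all 4 of the genes that could be tested were among them. RT1-T24-4 had the smallest adjusted p of all 7414 genes (2.42e-32), followed among the 4 by RT1-A1 (8.46e-16), RT1-T24-3 (5.41e-05) and RT1-A2 (0.0244). RT1-N2 could not be tested, since its DA counts were all 0. In nuclei RT1-T24-4 passed again (adjusted p = 0.0125), and RT1-A1 (0.942), RT1-A2 (0.987) and RT1-T24-3 (0.826) did not. The RT1-A2 result did not hold when any 1 rat was left out (adjusted p from 0.139 to 0.527), and that of RT1-T24-3 was lost without LEW rat 1 (0.423). The nuclei result of RT1-T24-4 was lost without DA rat 1 (0.915) and without DA rat 2 (0.985).

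The gates behind these results were found by setting each against hepatocytes. For RT1-T24-4 the LEW to DA difference on the log2 scale was lower by 1.83 in TLH endothelial cells than in hepatocytes (SE 0.17, edgeR adjusted p = 5.23e-24), and lower by 1.87 in endothelial nuclei (SE 0.42, edgeR adjusted p = 0.00889). It was also lower in TLH mesenchymal cells, by 1.35 (SE 0.23, edgeR adjusted p = 1.31e-05), a gate in which 75 of 160 and 98 of 150 LEW barcodes but 69 of 330 and 57 of 439 DA barcodes lay within 2 times of the threshold, whereas in Kupffer cells the difference was -0.04 (SE 0.16, edgeR adjusted p = 0.956). Neither the Lyz2 myeloid gate (0.34, SE 0.35, edgeR adjusted p = 0.870) nor the NK/T gate of TLH (0.45, SE 0.29, edgeR adjusted p = 0.769) passed for RT1-T24-4. RT1-T24-3 moved the other way from RT1-T24-4 in TLH endothelial cells. There LEW gained a further 1.15 on the log2 scale over the difference in hepatocytes (SE 0.28, edgeR adjusted p = 0.0059). The neighbouring genes therefore shifted in opposite directions in the same endothelial sums. For RT1-A1 LEW gained 1.32 in Kupffer cells (SE 0.15, edgeR adjusted p = 3.46e-16), 0.97 in NK/T lymphocytes (SE 0.25, edgeR adjusted p = 0.0373) and 0.71 in endothelial cells (SE 0.17, edgeR adjusted p = 0.0079). For RT1-A2 no single gate passed, and the largest value was 1.11 in Lyz2 myeloid cells (SE 0.39, edgeR adjusted p = 0.282). In nuclei no gate passed for RT1-A1, RT1-A2 or RT1-T24-3. For RT1-A1 the value was -0.09 in Kupffer cell nuclei (SE 0.45, edgeR adjusted p = 0.986) and -0.34 in endothelial nuclei (SE 0.43, edgeR adjusted p = 1.0), so the gain of LEW seen in those TLH gates was not seen in nuclei. For RT1-T24-3 it was 0.78 in endothelial nuclei (SE 0.50, edgeR adjusted p = 1.0).

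The share of the hepatocyte list differed between gates and platforms, and the part of hepatocyte RNA in these values was not tested. In TLH hepatocytes themselves the list made 7.01% to 8.06% of UMIs, so its share is not that of all hepatocyte RNA. The list made 5.25% to 6.77% in the TLH endothelial gate, 2.78% to 4.33% in endothelial nuclei and 0.172% to 1.46% in immune-enriched endothelial cells. The ratio of DA to LEW for RT1-T24-4 was 2.98, 4.79 and 7.45 in the same order. The last of these values is from 1 rat per strain. Platform and chemistry also differ between these sets, so nothing about hepatocyte RNA is read from the ratios. In the same endothelial sums the ratio of LEW to DA was 5.47, 2.10 and 2.67 for RT1-A1 and 4.33, 3.38 and 3.39 for RT1-T24-3, and in mesenchymal cells the ratio of DA to LEW for RT1-T24-4 was 2.28, 1.35 and 4.14. The endothelial list made 0.507% to 0.644% of UMIs in the TLH endothelial gate and 0.00922% to 0.0165% in the hepatocyte gate, so its genes were not at 0 in hepatocytes.

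Levels were also compared between cell types within each liver, a contrast that the choice of the genes did not use. RT1-T24-3 was higher than in hepatocytes in each of the other gates on both platforms. As a mean of the strains it was higher by 4.50 on the log2 scale in TLH endothelial cells (SE 0.13, edgeR adjusted p = 1.29e-240) and by 5.50 in endothelial nuclei (SE 0.26, edgeR adjusted p = 1.48e-53). In Kupffer cells it was higher by 3.45 in TLH (SE 0.13) and 4.51 in nuclei (SE 0.32), in Lyz2 myeloid cells by 3.08 (SE 0.42), in NK/T lymphocytes by 2.12 (SE 0.33) and in TLH mesenchymal cells by 1.40 (SE 0.27). Of all genes tested, 20.5% were higher than in hepatocytes in the endothelial, 30.4% in the Kupffer, 13.6% in the NK/T and 10.2% in the mesenchymal gate of TLH, and 21.6%, 19.4% and 17.8% in the endothelial, Kupffer and mesenchymal gates of nuclei. In the Lyz2 myeloid gate 31.3% were called in either direction. In the DA rats the order over TLH gates was endothelial, Kupffer, then Lyz2 myeloid and NK/T lymphocyte with overlapping rats, mesenchymal and hepatocyte. In LEW the Kupffer and Lyz2 myeloid gates overlapped, as did the NK/T and mesenchymal gates, with endothelial cells above and hepatocytes below all of them.

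RT1-T24-4 was also higher in endothelial cells than in hepatocytes, by a margin that depended on the strain. The mean of the strains was higher than in hepatocytes by 1.68 in TLH endothelial cells (SE 0.09, edgeR adjusted p = 1.79e-77) and by 1.77 in endothelial nuclei (SE 0.21). Each strain was also read from the same fit of all 4 rats, a step added after seeing the data. These values restate the interaction and are not a separate result. In TLH endothelial cells exceeded hepatocytes by 2.59 in DA (SE 0.11) and 0.76 in LEW (SE 0.14). In nuclei the margins were 2.71 in DA (SE 0.30) and 0.84 in LEW (SE 0.31). In nuclei the order was endothelial, Kupffer, mesenchymal and hepatocyte in both strains, and no neighbours in this order overlapped. In TLH the DA rats had endothelial cells on top, with Kupffer and mesenchymal cells overlapping beneath. The LEW rats instead had Kupffer cells on top, with endothelial, Lyz2 myeloid and NK/T cells overlapping beneath. Mesenchymal cells of TLH exceeded hepatocytes in DA by 0.83 (SE 0.13) and were at -0.52 in LEW (SE 0.20, edgeR adjusted p = 0.0855).

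**Figure D3:**
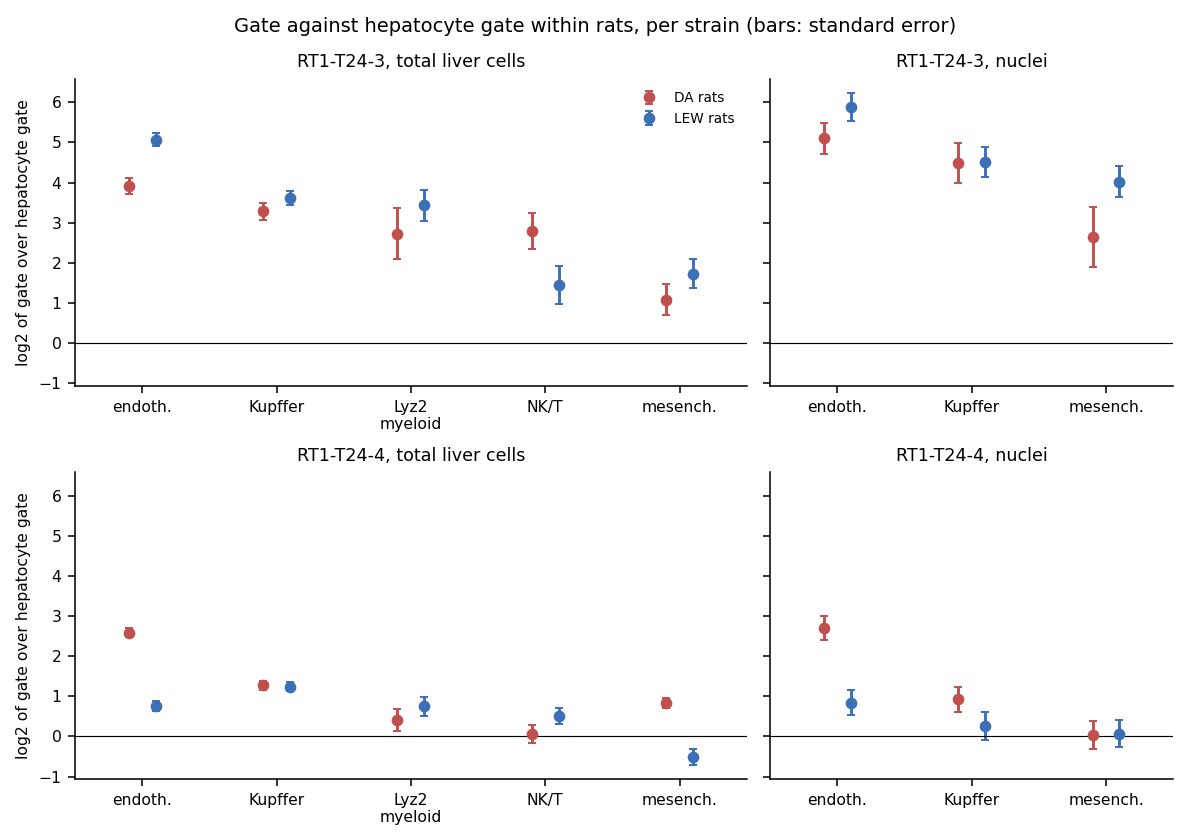
Difference between each gate and the hepatocyte gate on the log2 scale for RT1-T24-3 and RT1-T24-4, in TLH cells and nuclei. The DA and LEW values were read from the same fit of all rats of a platform, with bars of 1 SE. The endothelial point of RT1-T24-4 stood at 2.59 in DA and 0.76 in LEW for TLH, while that of RT1-T24-3 stood at 3.92 in DA and 5.07 in LEW.

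The classical genes exceeded the hepatocyte level by most in the Kupffer and Lyz2 myeloid gates of TLH. RT1-A1 exceeded the hepatocyte level by 1.49 in TLH Kupffer cells (SE 0.08), 1.14 in Lyz2 myeloid cells (SE 0.15) and 0.59 in NK/T lymphocytes (SE 0.14), and by 0.97 in Kupffer cell nuclei (SE 0.23), all on the log2 scale and past the threshold. In TLH mesenchymal cells it was lower than in hepatocytes, by 0.27 (SE 0.10, edgeR adjusted p = 0.0431) and 818 of 7414 genes were lower there. The call was lost under 7 of 9 alternatives. Its rise in TLH Kupffer cells was 0.82 in DA and 2.15 in LEW when each strain was read from the same fit. In TLH endothelial cells it was higher by 0.65 in LEW and at -0.06 in DA (edgeR adjusted p = 0.918). RT1-A2 exceeded the hepatocyte level by 1.26 in TLH Kupffer cells (SE 0.10), 1.44 in Lyz2 myeloid cells (SE 0.21), 0.63 in endothelial cells (SE 0.14) and 0.75 in Kupffer cell nuclei (SE 0.26, edgeR adjusted p = 0.0108). In mesenchymal cells and in NK/T lymphocytes RT1-A2 did not pass (0.38 in NK/T lymphocytes, edgeR adjusted p = 0.171). In LEW TLH the RT1-A1 level ran from Kupffer cells down to Lyz2 myeloid and NK/T cells, whose rats overlapped, then to endothelial cells, which overlapped with the Lyz2 myeloid gate, and to hepatocytes and mesenchymal cells, which overlapped as well. In DA, Lyz2 myeloid cells lay above NK/T cells, and the other neighbours in that order overlapped. RT1-N2, tested in LEW only, was lower by 1.52 in TLH endothelial cells than in hepatocytes (SE 0.55, edgeR adjusted p = 0.0195), as were 16.7% of all genes there, and no other gate passed. Of the other class I genes, 6 of 6 tested were likewise higher in TLH Kupffer cells and 6 of 6 in TLH endothelial cells, with medians of 1.80 and 1.13 on the log2 scale against 0.05 and -0.05 over all genes and shares of all genes called higher of 30.4% and 20.5%. Of 6 tested in each of the other TLH gates, 5 were higher in NK/T cells (13.6% of all genes) and 1 in mesenchymal cells (10.2%). In Lyz2 myeloid cells 4 of 6 were higher, where 31.3% of all genes were called in either direction. Of 6 tested in nuclei, 5 were higher in Kupffer cells (19.4% of all genes) and 3 in endothelial cells (21.6%), and in mesenchymal cells 2 were lower (19.7%) and none was higher (17.8%).

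Summed over all 21 class I genes, the strains overlapped in hepatocytes. In TLH hepatocytes all class I UMIs summed to 634 and 774 CPM in DA and 771 and 698 CPM in LEW. In hepatocyte nuclei the sums were 1125 and 1332 CPM in DA and 1446 and 1155 CPM in LEW. In TLH Kupffer cells LEW was above DA, with 1651 and 2153 CPM in DA and 3202 and 3431 CPM in LEW. In Kupffer cell nuclei the strains overlapped, with 2725 and 3556 CPM in DA and 2429 and 3713 CPM in LEW. The sums were also higher in LEW without overlap in the Lyz2 myeloid (1.48 times) and NK/T (1.48 times) gates of TLH and in mesenchymal nuclei (1.39 times), and they overlapped in the other gates. The sum of RT1-A1 and RT1-A2 likewise overlapped in hepatocytes, with 153 and 302 CPM in DA against 257 and 222 CPM in LEW in TLH and 359 and 440 CPM against 477 and 355 CPM in nuclei. It was higher in LEW without overlap in the Kupffer (2.26 times) and NK/T (2.27 times) gates of TLH and in mesenchymal nuclei (1.37 times), and overlapped in the other gates. Within that sum RT1-A1 made 22.4% to 44.8% in the DA rats and 77.2% to 97.1% in the LEW rats over the TLH gates, and 30.4% to 41.3% against 85.1% to 91.1% over the nuclei gates. In endothelial cells RT1-T24-3 made 5.94% and 4.43% of class I UMIs in DA and 19.8% and 18.0% in LEW in TLH, and 4.12% and 5.63% against 20.9% and 19.0% in nuclei.

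**Figure D4:**
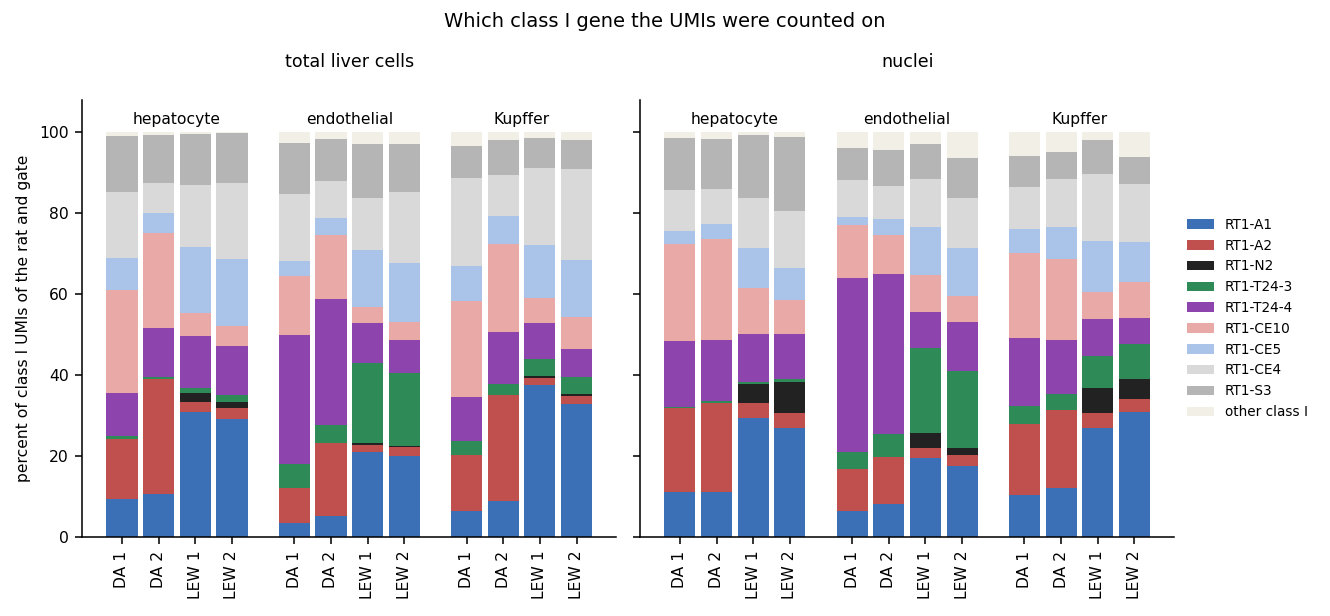
Percent of all class I UMIs that fell on each class I gene, for every DA and LEW rat, in the hepatocyte, endothelial and Kupffer gates of TLH cells and nuclei. RT1-A2 took a larger part in DA and RT1-A1 in LEW in every panel, and RT1-T24-3 took its largest part in LEW endothelial cells.

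By the median, the make-up of the class I counts lay further apart between strains than between cell types of 1 rat, though in TLH the ranges overlapped. The distance between 2 sets, defined as the percent of class I UMIs that would have to change gene to make them equal, had a median of 42.6% between rats of different strains in the same TLH gate (26.4% to 50.1%, 24 pairs), 15.9% between rats of 1 strain (4.79% to 22.0%, 12 pairs) and 14.5% between gates of the same rat (6.20% to 31.1%, 60 pairs). In nuclei these medians were 39.5% (35.4% to 47.6%, 16 pairs), 8.58% (2.83% to 12.1%, 8 pairs) and 17.9% (12.6% to 33.4%, 24 pairs). The values include the 5 genes picked for their strain difference and are a description. Gates of 1 rat also hold hepatocyte RNA of the same library, and its part in these distances was not tested.

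In the 4 gates that both platforms held, cells and nuclei gave the same directions for all of these genes but RT1-T24-4. A strain by platform interaction, fitted in each gate that both platforms held, was past the threshold for none of the 4 genes that could be tested, RT1-N2 being at 0 in DA. With edgeR it called 44 of 7899 genes (0.557%) in Kupffer cells and 2 of 5603 (0.0357%) in endothelial cells. It called 0 (0.0%) in hepatocytes and in mesenchymal cells, where 451 and 345 genes had an unadjusted p under 0.05. The nearest value was that of RT1-A1 in Kupffer cells, whose LEW to DA difference on the log2 scale was lower in nuclei by 1.61 (SE 0.42, edgeR adjusted p = 0.0776). Next came RT1-T24-4 in Kupffer cells, lower in nuclei by 1.12 (SE 0.39, edgeR adjusted p = 0.171). RT1-A1 in endothelial cells followed, lower in nuclei by 1.26 (SE 0.41, edgeR adjusted p = 0.321). This fit takes the 8 libraries as separate rats. With libraries matched by the recurring animal numbers as a block, a fit added after seeing the data, the value of RT1-A1 in Kupffer cells passed (-1.71, SE 0.42, edgeR adjusted p = 0.0142) and no other value of the 5 genes did. Platform and chemistry changed together, and their parts cannot be told apart.

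The immune-enriched libraries, with 1 rat per strain and therefore no test, gave a further view of the smaller cell types. The hepatocyte list made 0.172% of UMIs in DA and 1.46% in LEW endothelial cells and 0.106% in DA and 2.43% in LEW mesenchymal cells, and its part in these values was not tested. RT1-T24-4 in endothelial cells stood at 3147 CPM in DA (exact 95% counting interval 3005 to 3294) and 422 CPM in LEW (385 to 462), a DA to LEW ratio of 7.45 (6.73 to 8.26). In erythroid cells it stood at 215 CPM in DA (182 to 253) and 24.7 CPM in LEW (17.2 to 34.3), a ratio of 8.72, and in mesenchymal cells at 509 and 123 CPM, a ratio of 4.14 (2.01 to 9.58) from 49 and 9 UMIs. In Kupffer cells its ratio was 1.48 (1.31 to 1.67), and in Lyz2 myeloid cells 1.23 (0.962 to 1.58) and NK/T lymphocytes 1.17 (0.885 to 1.55), so that the higher LEW values of these gates in TLH were not seen here. In hepatocytes LEW was higher, by 1.67 times (1.26 to 2.24). RT1-A1 was again higher in LEW, with 484 CPM against 1702 CPM in Kupffer cells and 274 CPM against 732 CPM in endothelial cells. In mesenchymal cells the interval of its LEW to DA ratio held 1 (1.73, 0.915 to 3.32). RT1-A2 was again higher in DA, by 6.83 times in Kupffer cells and 7.38 times in endothelial cells. RT1-T24-3 stood at 315 CPM in DA and 1070 CPM in LEW in endothelial cells and at 49.6 and 49.4 CPM in NK/T lymphocytes, the gate in which the TLH strains had overlapped. RT1-N2 had no UMI in DA and stood at 21.8 CPM in LEW Kupffer cells and 11.7 CPM in LEW endothelial cells. The intervals cover counting error only, not the difference between rats.

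The Wistar sections, of 2437 and 2404 spots, had their own pattern. RT1-A1 stood at 516 and 614 CPM and RT1-A2 at 23.9 and 25.0 CPM, so that RT1-A1 made 95.6% and 96.1% of their sum, which is the side on which LEW lay. RT1-N2 had 0 UMIs in both sections, as in DA, where 3 counts would have given 0.0871 and 0.0861 CPM. RT1-T24-3 stood at 6.88 and 6.86 CPM and RT1-T24-4 at 93.0 and 90.5 CPM. The sections are of another platform, so no comparison with DA and LEW was tested. In the spots lowest and the spots highest in pericentral genes RT1-A1 stood at 529 and 533 CPM in the first section and at 641 and 634 CPM in the second.

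Among the other class I genes, those with the most UMIs were tested for the strain difference within each gate, beside the share of all genes called there. RT1-CE10, a nonclassical gene of the RT1-CE cluster, was called higher in DA in 5 of 6 TLH gates and called in none of the 4 gates of nuclei. The 5 include hepatocytes with 161 and 181 CPM in DA and 44.6 and 35.5 CPM in LEW (log2 difference -2.05, SE 0.16, edgeR adjusted p = 0.000497). A gate without a call can still hold a difference, since the RT1-CE10 share of class I UMIs was higher in both DA rats in every TLH and nuclei gate. In hepatocyte nuclei that share was 24.1% and 24.8% in DA and 11.4% and 8.37% in LEW. In the immune-enriched libraries the DA to LEW ratio of RT1-CE10 was 1.43 in hepatocytes (exact 95% counting interval 1.16 to 1.76) and 1.51 in endothelial cells (1.32 to 1.72). It was 1.48 in Lyz2 myeloid (1.28 to 1.73), 1.62 in NK/T (1.31 to 2.00) and 2.58 in mesenchymal cells (1.25 to 5.87). The interval held 1 in Kupffer cells (0.943, 0.865 to 1.03), B cells (0.703, 0.333 to 1.44) and erythroid cells (1.26, 0.812 to 1.94). RT1-CE5, of the same cluster, was called higher in LEW in 5 of 6 TLH gates and called in no gate of nuclei, with 49.7 and 38.4 CPM in DA and 126 and 115 CPM in LEW in TLH hepatocytes. Its share of class I UMIs was higher in both LEW rats in every TLH and nuclei gate. In hepatocyte nuclei that share was 3.25% and 3.75% in DA and 9.89% and 7.80% in LEW. RT1-CE4 was called in 1 of 10 gates, TLH Kupffer cells, with 359 and 220 CPM in DA against 611 and 768 CPM in LEW (edgeR adjusted p = 0.0158). RT1-N3 was lower in LEW hepatocyte nuclei, at 7.68 and 8.48 CPM in DA and 1.01 and 0.814 CPM in LEW (log2 difference -3.04, SE 0.51, edgeR adjusted p = 0.00800). RT1-S3 was called in none of 10 gates, RT1-M3-1 in neither of the 2 gates in which it could be tested, and RT1-CE7 not in the 1 gate in which it could be. In these tests the share of all genes called in TLH was 3.28% in hepatocytes, 2.82% in endothelial, 7.49% in Kupffer, 3.92% in Lyz2 myeloid, 3.37% in NK/T and 2.6% in mesenchymal cells. In nuclei it was 1.36% in hepatocytes, 0.393% in endothelial, 0.625% in Kupffer and 1.45% in mesenchymal cells. As with the 5 genes, the directions were mixed, with some class I genes higher in DA and others in LEW in the same cells.

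A list of 21 genes of class I presentation covers the light chain B2m, the peptide transporter and loading complex, the immunoproteasome and the factors that drive class I transcription. In TLH Kupffer cells 5 of 15 genes tested were higher in LEW and none was lower, beside 3.44% of all genes that were higher in LEW, with a median log2 difference of 0.53 over the 15 genes against -0.006 over all genes. They were Irf1, a transcription factor (1.09, edgeR adjusted p = 0.00601), the proteasome activator subunits Psme2 (0.96, 0.00516) and Psme1 (0.61, 0.0337), and the immunoproteasome subunits Psmb9 (0.81, 0.0182) and Psmb10 (0.69, 0.0401). Psmb9 stood at 121 and 124 CPM in DA and 195 and 250 CPM in LEW there, and its call was lost without LEW rat 2 (edgeR adjusted p = 0.297). In Kupffer cell nuclei none of 10 genes tested was called and the median was -0.04, with Irf1 at 0.24 and Psmb9 at 0.11 on the log2 scale. TLH mesenchymal cells had 1 call of 11, Psmb9 again, beside 2.6% of all genes, and the other gates had none. Without a call, the median was 0.46 over 19 genes in hepatocyte nuclei (0.03 over all genes), with Irf1 at 0.92 and Psmb9 at 0.94. In TLH endothelial cells it was 0.30 over 15 genes (0.005 over all genes). In the remaining gates it ran from -0.06 to 0.22. B2m was called in no gate, with log2 differences from -0.27 to 0.54. Of the class I-like genes Azgp1 was higher in DA in TLH Kupffer cells (1 call of 4 genes tested, beside 7.49% of all genes) and in NK/T cells (1 of 2, beside 3.37%). Cd1d1, which presents lipids, was higher in DA in TLH hepatocytes (1 of 4, beside 3.28%). Of other genes of the same chromosomal region, 1 of 25 tested was called in TLH Kupffer cells, where 7.49% of all genes were, and none in the other gates.

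The genes whose levels ran most like each member over the 40 sums of 1 rat and 1 gate, among 7868 genes and with the RT1 genes set aside, were found by Pearson correlation of log2(CPM + 10). These points share libraries, depth and free RNA. They also mix both strains, so the strain difference for which the members were picked enters every value. The values are a description. RT1-T24-3 ran most like Cdh5, which encodes VE-cadherin of endothelial junctions and is a marker of the endothelial gate (0.831), then Mrc1, a mannose receptor (0.799), and Cmtm3 (0.799). RT1-T24-4 ran most like Adipor1, an adiponectin receptor (0.831), Cyb5r1 (0.822) and Slc3a2, a subunit of amino acid transporters (0.807). RT1-A1 ran most like Itgal, an integrin subunit of leukocytes (0.738), and RT1-A2 most like Mlc1 (0.783) and Cyp4a2, a cytochrome P450 (0.770). RT1-N2 ran most like 2 genes without a given name and Baat, which conjugates bile acids (0.858). Within the class I genes RT1-A1 ran with RT1-CE5 (0.858) and RT1-A2 with RT1-CE10 (0.895), while RT1-A1 and RT1-A2 had a weak negative value (-0.313).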

How the data were processed

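The authors deposited unnormalized UMI counts, made with Cell Ranger 3.1.0, or Space Ranger 1.1.0 for the sections, per the labels, before their own filters on cells. TLH and immune-enriched matrices hold no gene symbols, so symbols came from the nuclei gene list in its order (Spearman correlation over rows 0.922 and 0.924, against 0.281 and 0.282 after a shift by 1 row). Libraries held 8039397 to 92484173 UMIs. The study's limits on UMIs and mitochondrial share were applied, with 2000 UMIs for LEW TLH in place of the stated 1500. This kept 3844 to 7112 TLH cells, 2205 to 5262 nuclei, and 1163 and 2677 immune-enriched cells per library. The TLH limits were 1500 UMIs and 30% mitochondrial for DA rat 1, 2000 and 20% for DA rat 2, and 2000 and 40% for both LEW rats. The mitochondrial limit thus differed between the strains, and its part in the strain differences of TLH was not tested. Nuclei libraries shared 1 to 6 barcodes with each other. Barcodes in which a marker list passed without the lead were left out, which does not remove doublets with hepatocytes. No doublet caller was run.

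UMI sums per rat and gate were fitted with edgeR 4.0.16 (TMM, default filter, quasi-likelihood, Benjamini-Hochberg, 0.05) in R 4.3.3, over all genes, and every adjusted p comes from it unless another tool is named. The alternatives were DESeq2 1.42.0, RLE scaling, no filter, stricter gates, 1500 UMIs for LEW TLH, a replicate block, a block by animal number for the platforms, and each rat left out. Promoters were aligned with Biopython 1.88. The steps were tested on simulated data.

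The 5 genes, the gene lists and the tests were chosen with earlier results of these data known. Named beside the 5 genes are other class I genes among the 8 with the most UMIs, called genes of the presentation and class I-like lists, and the genes most alike in level. RT1-S2, among those 8, could be tested in no gate. Genes of the framework list, other genes of the chromosomal region, are given as counts only.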

Additional observations from a re-analysis of the deposited data

Results flagged for a closer look

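Each result here is a strain difference that varied over the gates of a platform, by edgeR's interaction test with each rat as a block and Benjamini-Hochberg adjustment. In TLH these were RT1-T24-4 (adjusted p = 2.42e-32), RT1-A1 (8.46e-16) and RT1-T24-3 (5.41e-05), and RT1-A2 with 0.0244, the last of which did not hold without any 1 rat. Of the other class I genes RT1-CE10 (4.29e-09), RT1-CE4 (1.95e-06) and RT1-CE5 (0.00357) varied over the TLH gates, and RT1-N3 (0.0114) and RT1-T24-4 (0.0125) over the gates of nuclei. Outside the class I genes, 4 of 16 presentation genes tested, 2 of 4 class I-like genes and 2 of 28 other genes of the chromosomal region varied over the TLH gates, beside 6.34% of all genes. In nuclei these lists had no such call. The genes followed here are Azgp1 (0.0202), a soluble class I-like protein, and the immunoproteasome subunit Psmb9 (0.0385). The Psmb9 value was not past the threshold under any of 9 alternatives (adjusted p from 0.0558 to 0.733). The share of the hepatocyte list differed between the gates, and the part of hepatocyte RNA in these values was not tested.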

How the results depend on the processing

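Where the rats of the strains did not overlap, leaving out 1 rat can neither turn a ratio nor create an overlap, so that alternative cannot test these ratios. Under the other alternatives run none of these ratios of the 5 genes turned its direction in its gate. The strains did not overlap in 25 of 30 TLH pairs of gene and gate in the reported setting, 25 with gate thresholds 2 times as high and 27 with 1500 UMIs for LEW. In nuclei they did not overlap in 20 of 20 pairs. The genes were picked for such a difference, and the shares of all genes without overlap are given with RT1-A1 and RT1-A2. Counts of all genes called moved more. The strain contrast in TLH called 1246 genes over the gates, 633 with DESeq2, 2565 without a filter and 564 to 2266 with 1 rat left out, and in nuclei 207, 733 without a filter and 240 to 436 with 1 rat left out. The interaction called 470 in TLH, 198 with DESeq2, 275 with gate thresholds 2 times as high and 242 to 286 with 1 rat left out, and in nuclei 36, and 9 to 247 with 1 rat left out. Against hepatocytes 13600 calls in TLH became 10556 to 12732 with 1 rat left out and 6209 in nuclei became 4386 to 6849, and 3357 for LEW alone. The platform interaction called 46 genes, 9 with 1500 UMIs, 93 with DESeq2, 186 without a filter, 126 with libraries matched by animal number (chosen after seeing the data) and 1 to 363 with 1 library left out. With thresholds 2 times as high edgeR called 0, with 512, 451 and 287 genes at an unadjusted p under 0.05 in the endothelial, hepatocyte and mesenchymal gates. Replicate numbers did not pair the rats (correlations of same-numbered deviations from -0.156 to 0.021 in TLH and -0.0122 to 0.142 in nuclei). With a replicate block 1248 strain calls were made in TLH and 651 in nuclei. With the numbers crossed, chosen after seeing the data, TLH gave 1991. Why these counts moved was not tested. Of the single genes tested under alternatives, 1022 of 1130 values kept their side of the threshold, 84 lost the call and 24 gained it. Without gates the log2 LEW to DA ratio of RT1-T24-4 was -0.54 in TLH, whereas its median over the gates was 0.18. The interaction of RT1-T24-4 in TLH was called under all 9 alternatives, and so was that of RT1-A1 (adjusted p from 2.25e-17 to 1.23e-06). That of RT1-A2 was also lost with thresholds 2 times as high (0.483).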

Other observations

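The 2 DA rats of the TLH cells stood apart from each other in several class I genes, in the same direction over all 6 gates. DA rat 2 exceeded DA rat 1 in RT1-A2 by a median of 2.49 times (2.33 to 2.96), in RT1-A1 by 1.67 times (1.39 to 2.08) and in RT1-T24-4 by 1.28 times (1.12 to 1.94). RT1-CE4 went the other way in all 6 gates, with a median ratio of rat 2 to rat 1 of 0.614 (0.479 to 0.687). In the 2 DA rats of the nuclei RT1-CE4 was instead higher in rat 2 in all 4 gates (1.01 to 1.48 times). These ratios were noticed in the data and have no test, since each compares 1 rat with 1 rat. The 2 DA rats of the TLH cells also had different limits on UMIs and mitochondrial share, and medians of 1794 and 2545.5 UMIs per kept cell. The part of this in their ratios was not tested.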
